A study of Mus musculus with 4 samples.

Results

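The 10 genes described here encode the switch by which a cell leaves G1 and starts to copy its DNA, and they were taken from the deposited gene table by name: the D cyclins Ccnd2 and Ccnd3, the kinases Cdk4, Cdk6 and Cdk2, the inhibitors Cdkn1a, Cdkn1b, Cdkn2c and Cdkn2d, and Cables1. They are 10 of 53465 genes in the table, each stands on 1 row, and all 10 were among the 13528 genes that passed the filter on low counts. The libraries are RNA sequencing of CD8+ T cells isolated from mouse spleen and cultured for 24 h with beads carrying antibodies to CD3 and CD28, which engage the T cell receptor and its costimulatory receptor. There are 2 libraries labelled PP2Cm KO and 2 labelled WT, each called a biological replicate, and all 4 received the same stimulation. PP2Cm, encoded by Ppm1k, is the mitochondrial phosphatase that switches on the breakdown of branched-chain amino acids. The labels do not give the knockout allele, the age or the sex of the mice.

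The genotype labels conflict. The title and genotype field of each library name 1 genotype, and its description code, which also heads its column in the table, begins with the letters of the other. Groups here follow the title and genotype field, and the libraries are called labelled KO and labelled WT. Ppm1k went against these labels, with 11.8 and 14.3 TMM-scaled counts per 1000000 (CPM) in the libraries labelled KO and 7.84 and 5.53 CPM in those labelled WT, a log2 fold change of 0.97 (SE 0.23) with an adjusted p of 0.186 by edgeR's quasi-likelihood test. Every direction below would turn round if the codes were the true genotypes. The libraries labelled KO held 13394074 and 14199020 counts and those labelled WT 12967251 and 17316284. CD8 T cell markers summed to 2524 and 2361 CPM in the libraries labelled KO and to 2832 and 2592 CPM in those labelled WT. Marker sums of B cells, CD4 T cells, myeloid cells, dendritic cells, NK cells and erythroid cells lay at 40.2 CPM or less in each library.

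In G1, cyclin D binds CDK4 or CDK6, and the active kinase phosphorylates RB and its relatives, which then release E2F factors to transcribe the genes of DNA replication. Cyclin E with CDK2 completes the step. Inhibitors of the INK4 class, such as Cdkn2c and Cdkn2d, bind CDK4 and CDK6 alone, whereas those of the CIP/KIP class, such as Cdkn1a and Cdkn1b, bind cyclin and kinase together and restrain CDK2. Resting T cells are held out of cycle in part by p27, the product of Cdkn1b, and stimulation through the T cell receptor and CD28 raises D cyclins and CDK6 and lowers p27. Cables1 encodes a protein that binds cyclin-dependent kinases and was described in human and mouse cells as favouring the inhibitory phosphorylation of CDK2.

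Cables1 fell to 9.1 and 9.9 CPM in the libraries labelled KO, against 36.9 and 28.3 CPM in those labelled WT. In both libraries labelled KO, Cdk6 and Ccnd2 lay above and Cdkn2d, Cdkn1b, Cdkn2c and Cdk2 lay below each library labelled WT. None of these passed the threshold, an adjusted p of 0.05 over all genes tested by edgeR's quasi-likelihood test. Cdk4 and Cdkn1a had fitted folds of 1.01 and 1.03. In all, 1 of the 10 genes passed, as a lower one, and 0.207% of all genes tested passed, 0.103% as lower ones. In 7 of the 10 the 2 labels did not overlap, and 44.9% of all genes tested showed that. Of the 7, 2 lay higher under the KO label, as did 21.5% of all genes tested, and 5 lay lower, as did 23.3%. Without adjustment, p was under 0.05 for 1 higher gene, where 5.7% of all genes tested were of that kind, and for 3 lower ones, where 7.23% were. DESeq2, another count test, called 1 higher gene and 2 lower ones, against 0.686% and 1.4% of the genes it adjusted. The median log2 fold change of the 10, labelled KO over labelled WT, was -0.22, or -0.37 without labelled KO replicate 2, and that of all genes tested was -0.01. The list was chosen by the role of its genes together with the measured fold and call of Cables1 in this same comparison, so these counts, folds and p-values describe the 10 genes and are no independent test. With 2 libraries against 2, an exact two-sided permutation test of a single value cannot go below 0.333, and each adjusted p rests on a spread pooled across genes.

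**Figure D1:**
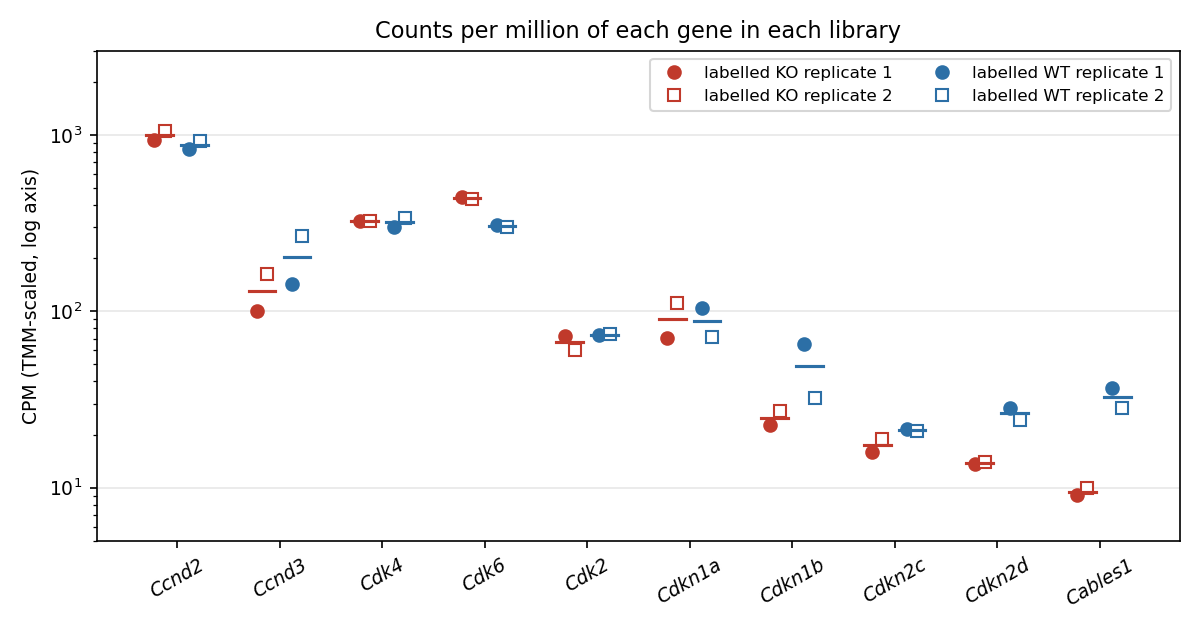
TMM-scaled CPM (log axis) of each of the 10 genes in each library, labelled KO in red and labelled WT in blue, with replicate 1 filled, replicate 2 open and a bar at the mean of 2. Cables1 and Cdkn2d are lower, and Cdk6 is higher, in both libraries labelled KO, while the replicates of Ccnd3, Cdkn1a and the labelled WT Cdkn1b lie far apart.

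Start-site sequences are given for 5 genes that mark these behaviours: Cdk6, with the higher level in the libraries labelled KO, Cdkn1b and Cdkn2d, with the lower level, Cdk4, whose labels overlapped, and Cdkn1a, whose level differed between replicates. Each is the RefSeq sequence from 250 bases before to 50 bases after a gene's start, GRCm38.p6, 5′ to 3′ on the gene's strand. Capitals mark the CCAAT box (CCAAT), the E-box bound by MYC (CACGTG) and the p53 element (a pair of adjoining half-sites with at most 1 mismatch, its core C and G kept), searched on both strands.
Cdk6, chr5:3343643-3343942, plus strand: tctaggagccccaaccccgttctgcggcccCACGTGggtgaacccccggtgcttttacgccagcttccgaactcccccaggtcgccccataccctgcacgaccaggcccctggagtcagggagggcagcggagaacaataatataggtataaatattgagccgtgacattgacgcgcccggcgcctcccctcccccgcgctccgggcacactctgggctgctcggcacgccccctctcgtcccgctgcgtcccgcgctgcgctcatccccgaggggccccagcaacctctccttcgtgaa
Cdk4, chr10:127063285-127063584, plus strand: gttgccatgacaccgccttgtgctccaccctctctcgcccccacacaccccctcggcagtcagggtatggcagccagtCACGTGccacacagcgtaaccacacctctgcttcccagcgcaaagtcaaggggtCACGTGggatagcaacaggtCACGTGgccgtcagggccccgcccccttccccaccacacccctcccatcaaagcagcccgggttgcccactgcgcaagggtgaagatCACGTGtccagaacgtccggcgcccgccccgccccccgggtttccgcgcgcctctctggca
Cdkn1b, chr6:134920151-134920450, plus strand: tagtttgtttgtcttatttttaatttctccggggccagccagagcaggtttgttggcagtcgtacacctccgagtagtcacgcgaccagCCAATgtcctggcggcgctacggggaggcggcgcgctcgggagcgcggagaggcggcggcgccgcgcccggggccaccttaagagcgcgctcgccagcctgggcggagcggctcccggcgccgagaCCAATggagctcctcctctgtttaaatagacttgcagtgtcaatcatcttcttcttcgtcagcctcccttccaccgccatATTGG
Cdkn2d, chr9:21291160-21291459, minus strand: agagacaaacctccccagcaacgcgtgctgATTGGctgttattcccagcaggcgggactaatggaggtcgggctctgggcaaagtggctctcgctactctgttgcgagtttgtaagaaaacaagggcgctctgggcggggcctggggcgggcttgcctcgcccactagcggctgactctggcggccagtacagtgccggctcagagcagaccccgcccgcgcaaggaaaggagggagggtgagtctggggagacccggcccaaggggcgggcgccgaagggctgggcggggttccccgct
Cdkn1a (upstream of 2 start sites), chr17:29090729-29091028, plus strand: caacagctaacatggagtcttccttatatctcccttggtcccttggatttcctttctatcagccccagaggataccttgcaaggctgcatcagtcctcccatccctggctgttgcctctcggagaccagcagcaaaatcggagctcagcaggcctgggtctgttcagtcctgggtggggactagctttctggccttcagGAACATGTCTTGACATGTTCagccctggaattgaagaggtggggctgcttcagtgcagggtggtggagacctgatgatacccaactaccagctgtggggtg
The Cdkn1b window holds 3 CCAAT boxes and the Cdkn2d window 1, and 37.4% of 32851 windows of this kind hold at least 1. The Cdk4 window holds 4 E-boxes and the Cdk6 window 1, and 7.2% of windows hold any. The Cdkn1a window holds a p53 element that begins 51 bases before the start site, and 0.07% of windows hold 1. The 11 RefSeq windows read here belong to 8 of the 10 genes, and no window of Ccnd2 or Cables1 was included. CCAAT boxes also stood in the Cdk2 window and in the downstream windows of Ccnd3 and Cdkn2c. That Cdkn2c window held an E-box as well, so neither motif was confined to the genes shown. Among the 11, the Cdk2 window held the 1 match to an E2F motif (TTTCCCGC, TTTGGCGC, TTTCGCGC or TTTGCCGC), which 2.3% of windows hold. Also among the 11, the upstream Ccnd3 window held the 1 match to the FOXO motif TGTTTAC, which 3.6% of windows hold. No match overlapped a match to another motif, and a match describes letters, not binding.

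The D cyclins are the subunits through which growth signals reach the switch. Ccnd2, the D cyclin with the higher level here, had 936 and 1051 CPM in the libraries labelled KO and 833 and 928 CPM in those labelled WT. The libraries labelled KO were both above those labelled WT, by a narrow margin, and the log2 fold change was 0.17 (SE 0.13, 95% limits -0.13 and 0.48). Leaving out each library in turn gave 0.09 to 0.26. Ccnd3, which developing thymocytes need to expand, had 100.3 and 162 CPM in the libraries labelled KO and 142 and 266 CPM in those labelled WT. The 2 labels overlapped, and replicate 2 was 1.61 times replicate 1 in the labelled KO pair and 1.88 times in the labelled WT pair. Its log2 fold change was -0.64 (SE 0.32, 95% limits -1.41 and 0.13), and leaving out 1 library moved it between -1.02 (labelled WT replicate 1, or labelled KO replicate 2) and -0.11 (labelled WT replicate 2). Ccnd3 supplied 7.52% and 10.5% of the summed FPKM of the pair (counts per kilobase and per 1000000, as deposited) in the libraries labelled KO and 11.4% and 17.9% in those labelled WT. Ccnd1, the D cyclin of many non-lymphoid cells, had 2 and 2 counts in the libraries labelled KO and 5 and 3 in those labelled WT. It was below the filter on low counts.

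Ccnd3 has an annotated processed pseudogene, Ccnd3-ps, with which it may share reads. Ccnd3-ps had 85 and 69 counts in the libraries labelled KO and 51 and 146 in those labelled WT, or 6.37% and 2.95% of the Ccnd3 count in the libraries labelled KO and 2.77% and 3.23% in those labelled WT. The identity of the pair and the division of reads between them were not measured. Bysl, on the opposite strand, shares 361 exon bases with Ccnd3 and had 179 and 165 CPM in the libraries labelled KO and 119 and 151 CPM in those labelled WT. The sources used here do not say whether reads were counted by strand.

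Cdk6 is a D cyclin kinase that is induced when T cells are activated. It had 442 and 431 CPM in the libraries labelled KO and 308 and 301 CPM in those labelled WT. Replicate 2 was 0.975 times replicate 1 in the labelled KO pair and 0.976 times in the labelled WT pair, and the 2 labels did not overlap. The level was 1.43-fold higher in the libraries labelled KO, with 95% limits of 1.21 and 1.7, a log2 fold change of 0.52 (SE 0.10) and an adjusted p of 0.124 by edgeR. The log2 fold change stayed between 0.50 and 0.54 over 10 alternatives, of which DESeq2 alone called Cdk6. DESeq2 gave an adjusted p of 0.00294, where 2.09% of all genes it adjusted passed. By edgeR with the replicate number as a block, the adjusted p of Cdk6 was 0.218. Cdk6 lies on chromosome 5 from 3341485 to 3531008 on the plus strand of GRCm38. Its antisense neighbour Gm17590 shares 368 exon bases with it and held 6 and 5 counts in the libraries labelled KO and 1 and 11 in those labelled WT, against 4015 to 6221 counts of Cdk6.

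Cdk4, the partner kinase with the same cyclins, had 326 and 324 CPM in the libraries labelled KO and 301 and 339 CPM in those labelled WT. The labels overlapped. Its log2 fold change was 0.02 (SE 0.11), with 95% limits on the ratio of 0.846 and 1.22. Tspan31, which shares 641 exon bases with Cdk4 on the opposite strand, had 66.0 and 62.9 CPM in the libraries labelled KO and 67.4 and 94.9 CPM in those labelled WT. Within each library, Cdk6 made up 33.6% and 33.2% of the summed FPKM of Cdk4 and Cdk6 in the libraries labelled KO and 27.6% and 24.9% in those labelled WT. The pair together summed to 76.3 and 77.2 FPKM in the libraries labelled KO and 65.4 and 69.3 FPKM in those labelled WT.

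Cdk2, the kinase of cyclins E and A, had 72.5 and 60.6 CPM in the libraries labelled KO and 73.4 and 73.9 CPM in those labelled WT. Both libraries labelled KO were lower, replicate 1 by a margin smaller than the distance between the labelled KO replicates. The log2 fold change was -0.15 (SE 0.14, 95% limits -0.47 and 0.18). It was -0.28 without labelled KO replicate 1 and -0.02 without labelled KO replicate 2.

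**Figure D2:**
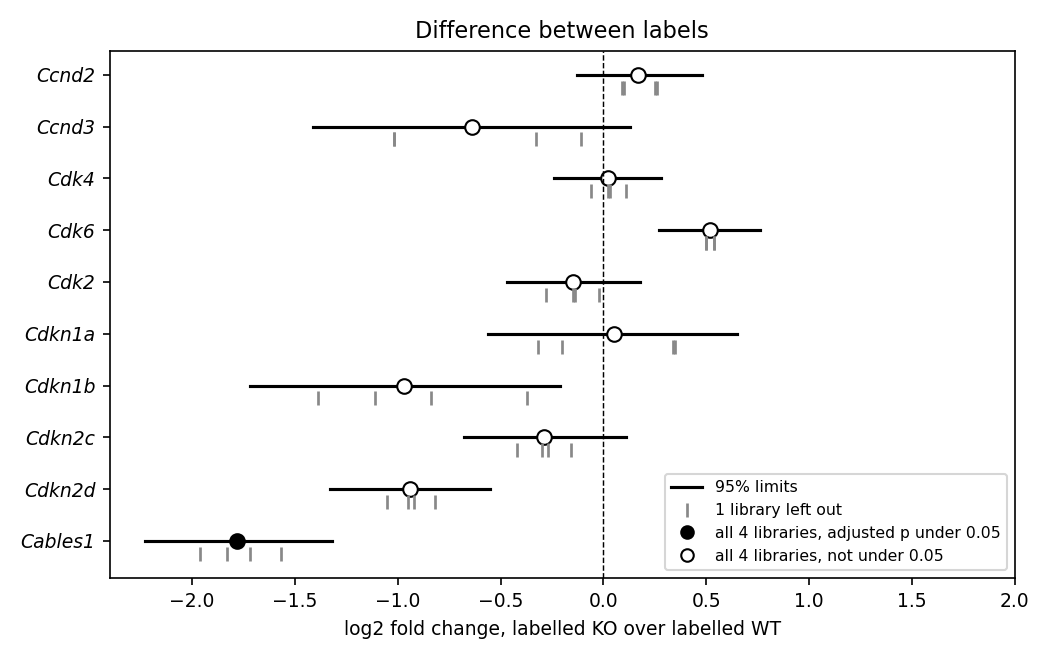
Log2 fold change of each gene, labelled KO over labelled WT, from edgeR on 4 libraries (circle, filled where the adjusted p is under 0.05) with its 95% limits (line), and the value with each library left out in turn (grey ticks). The limits of Cdk6, Cdkn1b, Cdkn2d and Cables1 lie off 0, and the ticks of Ccnd3, Cdkn1a and Cdkn1b spread widely.

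Among the INK4 inhibitors, Cdkn2d, which encodes p19 and is a lymphoid-expressed inhibitor of CDK4 and CDK6, had 13.6 and 13.9 CPM in the libraries labelled KO and 28.4 and 24.3 CPM in those labelled WT. The replicates lay close together and the labels did not overlap. The level was 1.91-fold lower in the libraries labelled KO, a log2 fold change of -0.94 (SE 0.16, 95% limits -1.33 and -0.55) with an adjusted p of 0.0935 by edgeR, between 0.0066 and 0.425 over its alternatives. Its log2 fold change was -0.78 to -1.05 in all of them. Cdkn2c, which encodes p18, had 15.9 and 19.0 CPM in the libraries labelled KO and 21.5 and 21 CPM in those labelled WT. Both libraries labelled KO were lower, and the log2 fold change was -0.29 (SE 0.17, 95% limits -0.68 and 0.11), or -0.16 without labelled KO replicate 1. The INK4 pair summed to 9.57 and 11 FPKM in the libraries labelled KO and 16.1 and 14.4 FPKM in those labelled WT, and Cdkn2d made up 41.8% and 38.0% of it in the libraries labelled KO and 52.5% and 49.2% in those labelled WT. No annotated gene shares exons with Cdkn2d (chromosome 9 from 21288410 to 21291407, minus strand) or Cdkn2c (chromosome 4 from 109660876 to 109667189, minus strand). The other INK4 genes, Cdkn2a and Cdkn2b, had at most 8 counts in any library.

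Cdkn1b had 22.6 and 27.3 CPM in the libraries labelled KO and 65.5 and 32.4 CPM in those labelled WT. The labels did not overlap, but labelled WT replicate 2 lay nearer to the libraries labelled KO than to its own replicate. The level was 1.95-fold lower in the libraries labelled KO, a log2 fold change of -0.97 (SE 0.32, 95% limits -1.72 and -0.21) with an adjusted p of 0.289 by edgeR. Leaving out labelled WT replicate 1 brought it to -0.37. Leaving out labelled WT replicate 2 brought it to -1.39 with an adjusted p of 0.0102, the lowest over its alternatives, of which the highest was 0.688. No annotated gene shares exons with Cdkn1b, which lies on chromosome 6 from 134920401 to 134925513 on the plus strand.

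Cdkn1a, which encodes p21 and is a target of p53, did not follow the labels. It had 70.2 and 111 CPM in the libraries labelled KO and 105 and 71.6 CPM in those labelled WT. Labelled KO replicate 2 and labelled WT replicate 1 were high, the other 2 libraries were low, and the mean log2 fold change was 0.05 (SE 0.25, 95% limits -0.56 and 0.65). Leaving out single libraries gave values from -0.32 to 0.35. Cdkn1a made up 64.4% and 71.5% of the summed FPKM of the 4 inhibitors in the libraries labelled KO and 58.0% and 55.2% in those labelled WT. Like Cdkn1a, the sum was higher in labelled KO replicate 2 and labelled WT replicate 1 than in the other 2 libraries. That sum was 35.2 and 51.5 FPKM in the libraries labelled KO and 58.9 and 41.4 FPKM in those labelled WT, with no separation of the labels.

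Most other p53 targets tested differed between replicates in the same order as Cdkn1a. Of 21 such genes tested, 14 (66.7%) were higher in labelled KO replicate 2 than in replicate 1 and higher in labelled WT replicate 1 than in replicate 2, an order that 31.2% of all genes tested showed. In 10 of the 21 (47.6%) each difference was over 1.2 times, against 6.93% of all genes tested. The reverse order was shown by 1 of the 21 (4.76%), Aen, against 30.4% of all genes tested. Aen had 47.4 and 23.3 CPM in the libraries labelled KO and 16.7 and 89.2 CPM in those labelled WT. Ccng1, encoding cyclin G1, had 238 and 373 CPM in the libraries labelled KO and 344 and 239.6 CPM in those labelled WT. Zmat3, an RNA-binding p53 target, had 86.2 and 128 CPM in the libraries labelled KO and 99.4 and 75.3 CPM in those labelled WT. Genes that E2F drives at the start of DNA replication mostly had the opposite order: 14 of 22 (63.6%) were higher in labelled KO replicate 1 and labelled WT replicate 2, an order shown by 30.4% of all genes tested. Mcm6, a subunit of the replicative helicase, had 790.1 and 679 CPM in the libraries labelled KO and 858 and 931 CPM in those labelled WT. These orders were noticed in the data, they describe 4 libraries, and what in the cultures goes with them was not tested. Aen, Ccng1 and Zmat3 were chosen after their values were seen.

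**Figure D3:**
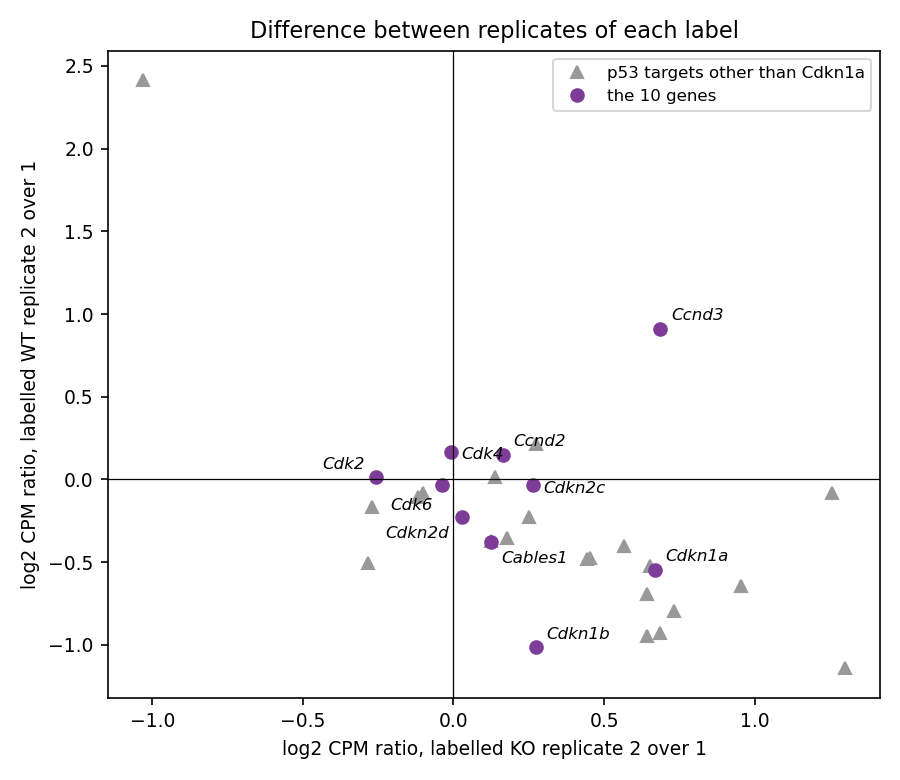
Log2 CPM ratio of replicate 2 over replicate 1 in the libraries labelled KO (x axis) and labelled WT (y axis) for the 10 genes (purple circles) and 21 other p53 targets (grey triangles). Cdkn1a lies with most p53 targets at the lower right, Ccnd3 is high in replicate 2 of both labels, and Cdk4 and Cdk6 lie near 0 on both axes.

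Cables1 was the 1 gene of the 10 that passed, at rank 14 by p among the 13528. It had 121 and 143 counts in the libraries labelled KO and 480 and 481 in those labelled WT, or 9.5 ± 0.566 CPM and 32.6 ± 6.06 CPM (SD, n = 2 each). The level was 3.42-fold lower in the libraries labelled KO, with 95% limits on the ratio of 0.213 and 0.401. The log2 fold change of -1.78 (SE 0.19) had an adjusted p of 0.0352 by edgeR, between 2.38e-09 and 0.179 over the other tests, scales and left-out libraries. It was -1.83 with an adjusted p of 0.179 without labelled KO replicate 2 and -1.72 with 0.0487 without labelled KO replicate 1. It was -1.22 with an adjusted p of 0.108 on log2(FPKM + 1) and -1.67 with 0.0911 on log2(FPKM + 0.1), both by limma. A fit that paired labelled KO replicate 1 with labelled WT replicate 2 and the other two with each other, added after seeing the data, did not call it either. Gm6277 shares 1314 exon bases with Cables1 on the opposite strand and held 2 and 0 counts in the libraries labelled KO and 14 and 0 in those labelled WT. Its part in the Cables1 counts was not tested.

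Relatives and partners of Cables1 had log2 fold changes from -0.25 to 0.42. None of 7 tested passed by edgeR or DESeq2, and 0 had an unadjusted p under 0.05, where 12.9% of all genes tested did. Cables2, its paralogue, had 39.8 and 38.6 CPM in the libraries labelled KO and 34.7 and 36.1 CPM in those labelled WT, a log2 fold change of 0.15 (SE 0.14). Cdk5rap3, also of this list, had a log2 fold change of -0.25 (SE 0.13). Abl1, the kinase from which Cables1 takes part of its name, had 104 and 101 CPM in the libraries labelled KO and 119 and 35.4 CPM in those labelled WT. Labelled WT replicate 2 stood apart, and Abl1 passed, with a log2 fold change of 1.54 and an adjusted p of 0.00378, in the fit without labelled WT replicate 1.

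The genes whose profile over the 4 libraries was most like that of Cables1, by Euclidean distance between centred log2 CPM among 13527 others, were Cym, Aqp1, Aldoc, Arl5c and Ahdc1, at distances of 0.113 to 0.291. Clone-named genes were left aside. The named genes were picked for this likeness, so their lower level in the libraries labelled KO follows from the choice. Arl5c had 13.5 and 15.9 CPM in the libraries labelled KO and 53.9 and 34.7 CPM in those labelled WT. Cym and Aqp1 stayed under 2 CPM in each library, so their place near Cables1 rests on few counts.

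Levels can be compared between the 10 genes only per length. By mean FPKM over the 4 libraries the order was Ccnd2 (75.8), Cdk4 (50.4), Cdkn1a (29.1), Cdk6 (21.6), Ccnd3 (10.3), Cdkn2c (6.83), Cdkn2d (5.92), Cdk2 (5.86), Cdkn1b (4.87) and Cables1 (2.85). The ranges over libraries of Ccnd2, 67.7 to 86.6 FPKM, and Cdk4, 47.3 to 52.0 FPKM, did not overlap each other or that of Cdkn1a. Those of Cdkn1a and Cdk6 overlapped, and so did each pair of neighbours from Ccnd3 down to Cables1. The gene length implied by count and FPKM was 86.5% (Cdkn1a) to 214.6% (Cdkn2d) of the exon length in GENCODE M21. The order, and the shares and sums of FPKM given above, therefore depend on the length used. With the exon length, Ccnd2 had 99.6 and Cdk4 99.3 CPM per kilobase, and their ranges overlapped.

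Around the 10 genes, 88 tested genes of 8 lists on the same switch were read off the same fit. None passed by edgeR. Without adjustment, 2 higher genes (2.3%) and 6 lower ones (6.8%) had p under 0.05, against 5.7% and 7.23% of all genes tested. DESeq2 called 1, where 2.09% of all genes it adjusted passed. These shares of calls and unadjusted p do not exceed those of all genes. The labels did not overlap for 10 higher and 27 lower genes of the 88, where 21.5% and 23.3% of all genes tested were of those kinds. The share in the 88 was thus below that of all genes for the higher kind and above it for the lower kind. Of the 88, 64.8% had a negative log2 fold change, against 51.9% of all genes tested. The median log2 fold change of the 88 was -0.08, against -0.01 over all genes tested. Among other cyclins, Ccnb2, a mitotic cyclin, had 37.8 and 30.5 CPM in the libraries labelled KO and 64.3 and 61.3 CPM in those labelled WT, a log2 fold change of -0.88 (SE 0.16) with an adjusted p of 0.0981 by edgeR. It is the gene that DESeq2 called, with an adjusted p of 0.000826. Ccne2, a cyclin of CDK2, had 40.0 and 45.0 CPM in the libraries labelled KO and 32.8 and 30.6 CPM in those labelled WT, a log2 fold change of 0.42 (SE 0.15).

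Among other inhibitors, Cdkn3, a phosphatase that acts on CDK2, had 2.11 and 2.56 CPM in the libraries labelled KO and 4.38 and 4.0 CPM in those labelled WT. Pkmyt1, a kinase that inhibits CDK1, had a log2 fold change of -0.28 (SE 0.13). Of the activators, the phosphatases Cdc25b and Cdc25c had log2 fold changes of -0.27 (SE 0.11) and -0.39 (SE 0.17). Of ubiquitin ligase parts, Skp2, which marks p27 for destruction, had 28.6 and 26.2 CPM in the libraries labelled KO and 21.1 and 20.6 CPM in those labelled WT. Its log2 fold change was 0.40 (SE 0.15), while that of Fzr1, an activator of the anaphase-promoting complex, was -0.30 (SE 0.11). The labels did not overlap for either gene.

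Pocket proteins, the substrates of the cyclin D kinases, and the MuvB core had 7 of 8 members negative (87.5%), where 51.9% of all genes tested were, with a median of -0.17, or -0.03 without labelled WT replicate 1. Rbl2, encoding the pocket protein p130 of resting cells, had 45.9 and 52.9 CPM in the libraries labelled KO and 73.4 and 56.0 CPM in those labelled WT, a log2 fold change of -0.39 (SE 0.17), or -0.18 without labelled WT replicate 1. Rbl1 had -0.19 (SE 0.13), or -0.07 without that library. Targets of RB and E2F at the start of DNA replication had 18 of 22 members negative (81.8%) and a median of -0.13, or -0.04 without labelled WT replicate 2. Mcm6 had -0.28 (SE 0.13) and Cdc45 -0.20 (SE 0.10). The p53 targets had 10 positive and 11 negative, with a median of -0.07. That median was 0.12 without labelled KO replicate 1, -0.19 without labelled KO replicate 2 and 0.09 without labelled WT replicate 1. Btg2 and Sesn1, which restrain growth, had -0.45 (SE 0.16) and -0.45 (SE 0.18).

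**Figure D4:**
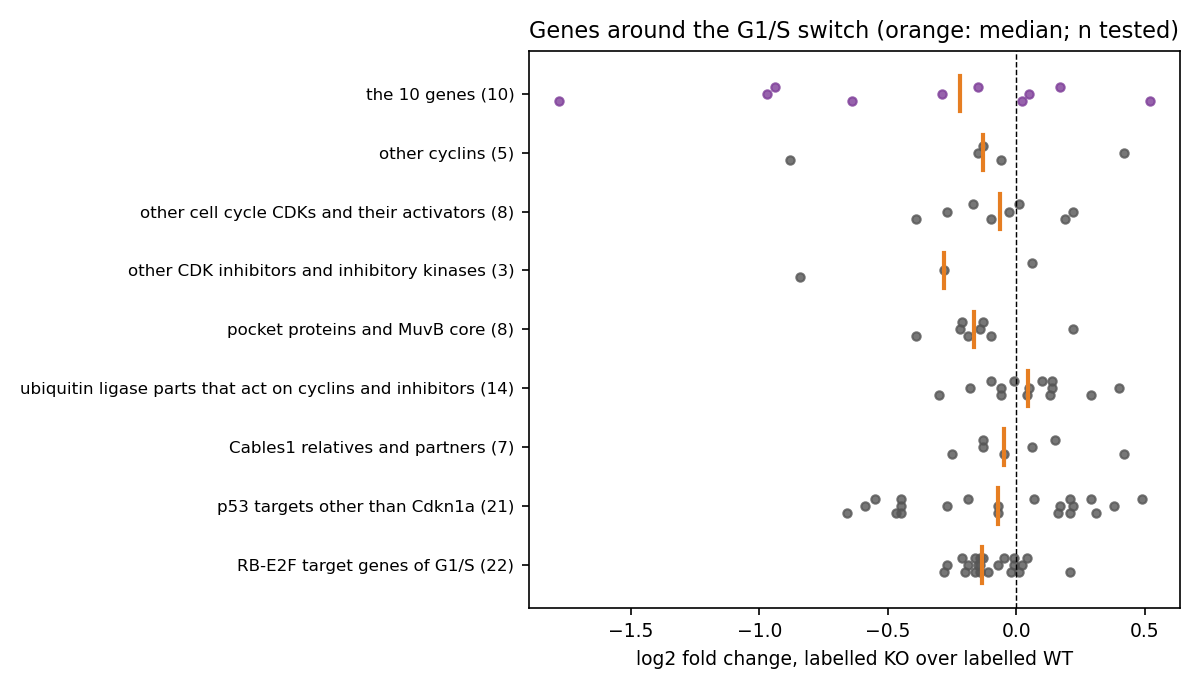
Log2 fold change, labelled KO over labelled WT, of the 10 genes (purple, top row) and of the tested genes of 8 lists on the same switch (grey), with the number tested in brackets and the median in orange. The 10 genes run from -1.78 to 0.52, and list medians run from -0.28 to 0.04.

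These are bulk libraries, so fewer cells of a kind and less RNA per cell cannot be told apart for any of these genes. Markers of B cells summed to 12.6 and 6.85 CPM in the libraries labelled KO and 12.8 and 16.1 CPM in those labelled WT. Those of erythroid cells and platelets summed to 2.56 and 3.67 CPM in the libraries labelled KO and 5.53 and 11.4 CPM in those labelled WT. The sums of myeloid, dendritic, NK and CD4 T cell markers overlapped between the labels. Of 39 marker genes of other cells, the myeloid genes Fcgr1 and S100a9 and the erythroid gene Alas2 were at 0 in all 4 libraries. The part of these cells in the differences was not tested.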

How the data were processed

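Per the file headers, the authors deposited counts per gene, which are whole numbers, and FPKM for the same genes. Kallisto and the build GRCm38 are named per the submitters' processing notes, with no version or role. The sources used here do not give filters or the use of strand in counting. A further 8 value columns were not used here. Columns were joined to libraries through the description codes. Of 53274 genes also in GENCODE M21 (GRCm38), 96.29% had the same coordinates. That annotation gave exon lengths and overlaps.

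Counts of 13528 genes kept by filterByExpr were scaled by TMM and tested by edgeR 4.0.16 (R 4.3.3; glmQLFit and glmQLFTest, labelled KO over labelled WT, two-sided), with Benjamini-Hochberg adjustment over all of them and a threshold of 0.05. The fit was tested on simulated data in which all genes had the same dispersion. That run does not cover dispersions that differ between genes. DESeq2 1.42.0, limma 3.58.1 on log2 FPKM with pseudocounts of 1 and 0.1, size factors, no filter, a replicate block and each library left out were alternatives. A count of 0 allows up to 0.231 CPM, for counting error only.

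The 10 genes, the 8 lists and the motifs were chosen with earlier results of these data known. Named genes are the 10, those called and the 2 with the lowest p in each list, the 5 profiles nearest to Cables1, and Ppm1k. Outside this rule, genes that overlap or copy the 10 and 3 cell markers at 0 were named after their values were seen. So were Ccnd1, Cdkn2a, Cdkn2b, Abl1, Aen, Ccng1 and Zmat3.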

Additional observations from a re-analysis of the deposited data

How the results depend on the processing

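The number of genes called over the whole table was 28, and it was 277 by DESeq2, 146 without a low-count filter, 5 on log2(FPKM + 1), 4 on log2(FPKM + 0.1), and 3 to 266 as single libraries were left out. Of the 10 genes, DESeq2 called 3 (Cables1, Cdkn2d and Cdk6), the fit with no filter 2 (Cables1 and Cdkn2d), each FPKM scale 0, and fits with 1 library left out 0 to 3. Of the 88 surrounding genes the calls were 1 by DESeq2 and 1 with no filter, both Ccnb2, and 0 to 1 as single libraries were left out. Ppm1k had a log2 fold change of 0.97, and leaving out each library in turn gave 0.73 to 1.24. The value of 1.24, without labelled WT replicate 1, passed with an adjusted p of 0.0438. The sign turned for Cdk4, whose values as single libraries were left out ran from -0.06 (without labelled WT replicate 1) to 0.11, and for Cdkn1a, whose values ran from -0.32 (without labelled KO replicate 2) to 0.35, with -0.20 without labelled WT replicate 2. Median log2 fold changes of 3 other lists turned sign: Cables1 relatives (-0.05, with 0.14 without labelled WT replicate 2 and 0.01 without labelled KO replicate 1 and on log2(FPKM + 0.1)), other cyclins (-0.13, and 0.06 without labelled WT replicate 2) and ubiquitin ligase parts (0.04, and -0.002 without labelled KO replicate 1). The cause of these changes was not tested. Fits without 1 library take their spread from 1 pair and assume that the lone library varies like the others.

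With the replicate number as a block, 123 genes passed over the whole table, and Cables1 alone of the 10. Over the genes tested, replicate 1 deviations of the 2 labels correlated at -0.168. With 1 profile of deviations per label, this value cannot show whether the numbers pair the libraries, and the labels do not say. The main fit took the libraries as unpaired. The crossed pairing, added after seeing the data, called 12 genes over the whole table and 0 of the 10.

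With 2 libraries per label, the spread between replicates limits all 10 genes. Counts per library were 121 to 481 for Cables1, 181 to 413 for Cdkn2d and 211 to 357 for Cdkn2c, the 3 genes with the lowest mean counts.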
